A study of Mus musculus with 25 samples.

Results

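Whole-lysate RNA of mouse hypothalamus was compared after 3 days of high-fat diet (HFD) and after 3 days of control diet (CD), with 4 HFD pools and 4 CD pools. These 8 libraries are the ones the labels name INPUT, sequenced from total lysate before tagged ribosomes were precipitated, and they were chosen by those labels out of 25 samples in the series. All mice of both diets were 12 weeks old and heterozygous for Slco1c1-CreERT2, a tamoxifen-inducible Cre recombinase driven by the promoter of a transporter of brain endothelium, and for a ROSA26 allele that makes GFP-tagged ribosomal protein L10a once a stop cassette is removed. The diets began 3 weeks after tamoxifen. Each pool combined the hypothalami of 4 mice, 2 males and 2 females, so that a replicate is a pool and not an animal. The same lysates gave a second set of 8 libraries of RNA bound to tagged ribosomes (IP), whose diet differences are given beside those of the whole lysate.

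The hypothalamus holds the neurons that sense energy stores and control feeding, body temperature, the release of pituitary hormones and the daily cycle. It borders the third ventricle, which is lined by ependymal cells and by tanycytes, elongated glia that carry signals between blood, cerebrospinal fluid and neurons. In rodents, a diet rich in fat is known to be followed within days by activation of hypothalamic astrocytes and microglia, before weight gain.

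The 8 libraries held 29.0 to 41.6 M counts in HFD pools and 29.5 to 42.8 M in CD pools. Mitochondrial, ribosomal and structural RNA took 32.9 to 39.6% of the HFD libraries and 37.2 to 39.6% of the CD libraries and was left out before scaling, which left 17.7 to 26.5 M and 18.5 to 25.8 M counts. Mitochondrial RNA took 33.0 ± 3.69% in HFD pools and 33.9 ± 0.670% in CD pools (SD, n = 4 each), a difference within the spread of the pools (exact permutation test, 2-sided, p = 0.714, adjusted p = 0.714). Cytosolic ribosomal RNA took 3.67 ± 0.633% in HFD pools and 4.45 ± 0.540% in CD pools, and this difference too did not pass the exact permutation test (p = 0.143, adjusted p = 0.286; the smallest p that 4 pools against 4 allow is 0.0286). The labels give these libraries the cell type endothelial cell, but their RNA was that of mixed tissue. Levels are given as CPM, the count of a gene scaled to the size of its library. Snap25, a synaptic protein of neurons, ran from 8477 to 11535 CPM in HFD pools and from 9001 to 10929 CPM in CD pools, whereas Cldn5, a tight junction protein of brain endothelium, stayed between 1.29 and 1.78 CPM in HFD pools and between 0.346 and 1.10 CPM in CD pools. The hypothalamic markers Sim1 and Nkx2-1 were present in every pool, at 25.4 to 30.1 CPM and 13.4 to 18.1 CPM in HFD pools against 23.3 to 29.9 CPM and 13.4 to 18 CPM in CD pools. Neighbouring tissue was present as well, and the thalamic factor Tcf7l2 ran from 172 to 328 CPM in HFD pools and from 181 to 286 CPM in CD pools. No defining marker of any cell type checked was at 0. In such bulk RNA, fewer cells of a type and less RNA per cell cannot be told apart.

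Of 16837 genes tested with edgeR's quasi-likelihood model, 6 passed an adjusted p of 0.05, which is 0.0356% of the genes tested. Vim, S100a11, Ifitm2 and Tubb2b were higher in HFD pools (4 genes, 0.0238%), and Rbm3 and Cirbp were lower (2 genes, 0.0119%). The changes were modest in size, with log2 fold changes (HFD over CD) between 0.34 and 0.60 for the genes that rose and of -0.74 and -0.51 for those that fell. Without adjustment, 1258 genes (7.47%) had a p under 0.05, of which 663 (3.94%) were higher and 595 (3.53%) lower in HFD pools. The 4 HFD pools lay wholly above the CD pools for 388 genes (2.3%) and wholly below them for 385 genes (2.29%), together 773 genes (4.59%). The median log2 fold change of all genes was 0.0016. The count of 6 depended on single pools, with 2 genes without HFD pool 4 and 2 without CD pool 3, but 16 without HFD pool 2 and 13 without CD pool 4. DESeq2 called 52 genes, among them the same 6.

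**Figure D1:**
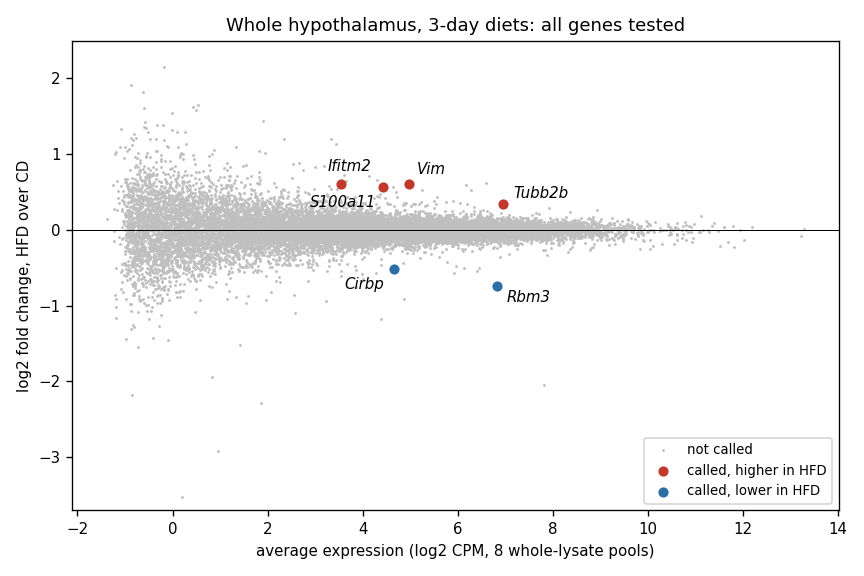
Log2 fold change (HFD over CD, vertical axis) against average expression (log2 CPM, horizontal axis) for the 16837 genes tested in the 8 whole-lysate pools. Grey points did not pass the test, red points (4 genes) passed and were higher in HFD pools, and blue points (2 genes) passed and were lower; the 6 called genes lie at the edge of the cloud for their level.

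Vim encodes vimentin, the intermediate filament protein of tanycytes, reactive astrocytes and vascular cells. It lies on chromosome 2 (GRCm38, 13573927 to 13582826, forward strand). Its level was 38.0, 37.8, 33.6 and 41.2 CPM in the HFD pools, against 22.6, 25.7, 24.3 and 26.4 CPM in the CD pools. Every HFD pool was above every CD pool, and the lowest HFD pool stood well clear of the highest CD pool. Vim rose by a log2 fold change of 0.60 ± 0.08 (SE) with an adjusted p of 0.00523, and it kept its call when any 1 pool was left out.

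S100a11 encodes a calcium-binding protein of the S100 family that interacts with annexins at membranes (chromosome 3, 93520488 to 93526287, forward strand). Its pools read 24.4, 27.4, 23.9 and 26.8 CPM with HFD and 16.5, 19.7, 15.1 and 17.8 CPM with CD. The groups did not overlap, and the highest CD pool was pool 2. The log2 fold change was 0.57 ± 0.09 (adjusted p = 0.0233). The adjusted p was 0.0908 without HFD pool 4, 0.0771 without CD pool 1 and 0.0946 without CD pool 3.

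Tubb2b encodes a beta-tubulin isotype of microtubules that is abundant in developing neurons and glia (chromosome 13, 34126748 to 34130466, reverse strand). It had 130.0, 142, 134 and 149 CPM in the HFD pools and 103, 109, 115 and 112 CPM in the CD pools. The groups were apart, but by less in proportion than for Vim. It rose by 0.34 ± 0.06 on the log2 scale (adjusted p = 0.0303), and this call was lost when any pool other than HFD pool 1 or HFD pool 2 was left out, with adjusted p-values between 0.0507 without CD pool 4 and 0.114 without HFD pool 4.

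**Figure D2:**
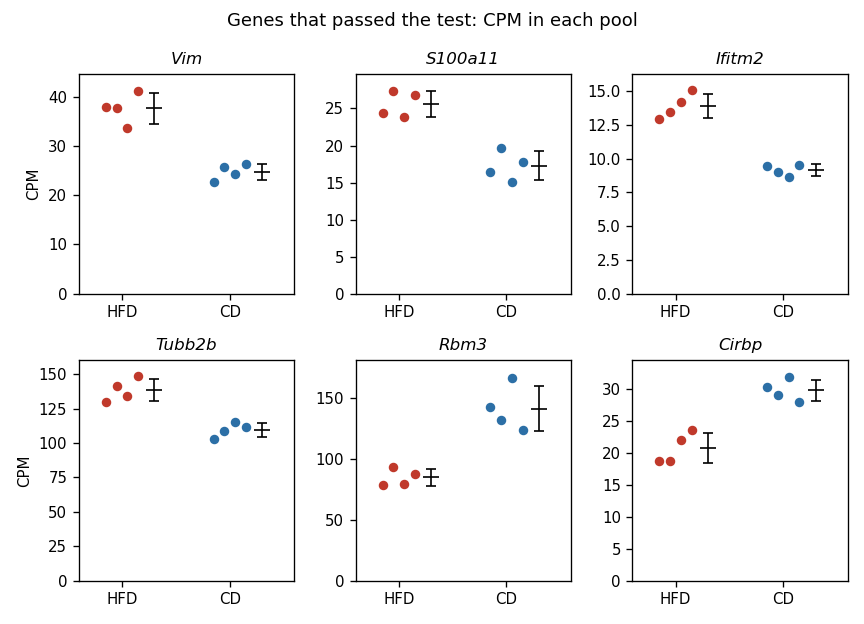
CPM (vertical axes, each from 0) of the 6 genes that passed the test, with a point for each of the 4 HFD pools (red, left) and 4 CD pools (blue, right) and the mean ± SD beside them in black. Vim, S100a11, Ifitm2 and Tubb2b lie higher in all 4 HFD pools than in any CD pool, and Rbm3 and Cirbp lie lower.

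Both Vim and S100a11 are on a list of 24 reactive glia genes, of which 22 were tested. Like the other lists, it was drawn up with earlier results of these data known, so its counts are description and no independent support. Vim and S100a11 rose, none fell, 19 of the 22 log2 fold changes were positive, and the median was 0.25, against 8518 of 16837 positive and a median of 0.0016 over all genes. For 6 of the 22, HFD pools lay wholly above CD pools, against 2.3% of all genes, and none lay wholly below, against 2.29%. Socs3, a feedback inhibitor of leptin and cytokine receptors, had 2.93, 3.72, 3.43 and 2.67 CPM in HFD pools and 1.94, 1.86, 2.25 and 2.16 CPM in CD pools. These groups were apart, yet at this low level the log2 fold change of 0.63 ± 0.18 had an adjusted p of 0.435. The small heat shock protein gene Hspb1 (0.66 ± 0.20, adjusted p = 0.461), the filament gene Nes (0.43 ± 0.16, adjusted p = 0.574) and, chosen after its values were seen, the annexin gene Anxa2 (0.36 ± 0.13, adjusted p = 0.531) also had positive values. Gfap, the classical filament marker of reactive astrocytes, had 247, 234, 303 and 256 CPM with HFD and 196, 242, 200.3 and 317 CPM with CD. Its groups overlapped, with the single highest value in CD pool 4, and the log2 fold change was 0.12 ± 0.17 (adjusted p = 0.920).

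Among 18 tanycyte markers, all tested, Vim rose, 16 log2 fold changes were positive and the median was 0.10. Slc17a8, a vesicular glutamate transporter, had 2.54, 3.39, 2.54 and 3.30 CPM in HFD pools and 2.21, 1.47, 1.58 and 2.19 CPM in CD pools, without overlap (0.66 ± 0.20, adjusted p = 0.461), and Lhx2, a homeodomain factor of tanycyte identity, had a log2 fold change of 0.27 ± 0.11 (adjusted p = 0.609). The tanycyte factor Rax was near the limit of detection, at 0.286 to 0.676 CPM in HFD pools and 0.130 to 0.807 CPM in CD pools. Of 17 ependymal markers, S100a11 rose and 11 were positive, with a median of 0.023, and the ciliary factor Foxj1 had 9.17 to 12.5 CPM in HFD pools against 9.66 to 12.6 CPM in CD pools. Hdc, the histamine-forming enzyme, which is also the mark of the histamine neurons of the tuberomammillary nucleus, had 17.0, 13.9, 19.8 and 20.9 CPM with HFD and 21.5, 21.5, 24.4 and 26.4 CPM with CD. The groups just failed to touch (-0.38 ± 0.11, adjusted p = 0.459). Of 12 S100 genes, 8 were tested, 6 were positive and S100a11 alone rose (median 0.071), while S100a4 had 0.44 ± 0.17 (adjusted p = 0.574).

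Ifitm2 and its neighbour Ifitm3 encode small membrane proteins that are induced by interferons and hinder the entry of viruses into cells. Ifitm2 (chromosome 7, 140954837 to 140955987, reverse strand) had 13, 13.5, 14.2 and 15 CPM in the HFD pools and 9.47, 9.03, 8.61 and 9.55 CPM in the CD pools. The gap between the groups was larger than the range within either. Ifitm2 rose by 0.60 ± 0.09 on the log2 scale (adjusted p = 0.0233). Its adjusted p was 0.0643 without HFD pool 3, 0.0908 without HFD pool 4, 0.0641 without CD pool 2 and 0.0946 without CD pool 3. Ifitm3 had 88.2, 85.2, 85.7 and 109 CPM with HFD and 60.2, 67.2, 55.9 and 72.6 CPM with CD. All HFD pools were above all CD pools, with HFD pool 4 far above the other 3, and the log2 fold change of 0.52 ± 0.09 missed the threshold (adjusted p = 0.104). Both genes belong to a family of similar copies, and the sources used here do not say how reads shared between copies were assigned.

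The promoters of both genes are printed because interferons act through a short DNA element in this stretch. RefSeq windows of build GRCm38.p6 from 250 bases before to 50 after each start were searched on both strands for the core of the interferon-stimulated response element (GAAA, any 2 bases, GAAA), which is in capitals. The Ifitm2 window (chr7:140955912-140956211, reverse strand) held 1 match, at -46 from the start, and the Ifitm3 window (chr7:141010695-141010994, reverse strand) held 2, at 2 and 19. Of 32851 mouse windows of this length, 1131 (3.44%) held the core, and those of Vim and S100a11 held none.
Ifitm2: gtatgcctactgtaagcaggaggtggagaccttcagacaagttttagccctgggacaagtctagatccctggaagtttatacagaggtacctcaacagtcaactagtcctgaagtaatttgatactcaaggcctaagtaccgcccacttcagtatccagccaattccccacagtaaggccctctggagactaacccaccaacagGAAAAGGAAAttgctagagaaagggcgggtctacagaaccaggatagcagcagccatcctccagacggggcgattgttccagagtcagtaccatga
Ifitm3: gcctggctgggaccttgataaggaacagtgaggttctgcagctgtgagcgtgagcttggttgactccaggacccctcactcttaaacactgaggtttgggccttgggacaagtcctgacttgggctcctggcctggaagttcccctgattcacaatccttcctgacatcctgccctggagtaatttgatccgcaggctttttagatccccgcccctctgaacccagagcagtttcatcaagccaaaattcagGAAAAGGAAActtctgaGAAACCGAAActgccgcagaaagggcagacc

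Of 39 interferon response genes, all tested, only Ifitm2 rose and none fell, but 34 log2 fold changes were positive and the median was 0.13. HFD pools lay wholly above CD pools for 2 of the 39, against 2.3% of all genes, and none lay wholly below, against 2.29%. The summed level of the list was 2266 to 2855 CPM in HFD pools and 1864 to 2519 CPM in CD pools, so the groups overlapped. Ifih1 and Ddx58, which sense viral RNA, had log2 fold changes of 0.25 ± 0.08 (adjusted p = 0.505) and 0.19 ± 0.09 (adjusted p = 0.652, chosen after its values were seen), and the guanylate-binding gene Gbp3 had 0.20 ± 0.08 (adjusted p = 0.606). The 15 genes of antigen presentation by MHC class I, several of which interferons also induce, had 6 positive values and a median of -0.0055, with none called. Outside the interferon list and chosen after their values were seen, the chemokine genes Cxcl9 and Cxcl10 were examined. Cxcl9 had 103, 122, 105 and 137 CPM in HFD pools and 62.9, 81.9, 81.9 and 75.2 CPM in CD pools. Cxcl10 had 75.7, 82.6, 78.2 and 110.5 CPM with HFD and 46.5, 63.8, 51.7 and 67.1 CPM with CD. Neither chemokine overlapped between diets, and the adjusted p-values were 0.125 (0.63 ± 0.11) and 0.526 (0.60 ± 0.17). Ubd, a ubiquitin-like protein (1.04 ± 0.21, adjusted p = 0.105), and the interferon-inducible GTPase gene Gvin1 (0.57 ± 0.11, adjusted p = 0.105), chosen likewise, also lay wholly higher in HFD pools. The span of Cxcl10 overlaps Art3 on the other strand, and that of Gvin1 overlaps the pseudogene Gm18853 on the same strand.

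Markers of immune cells were examined beside these genes. Of 16 microglia markers none was called, 13 were positive and the median was 0.034. Aif1, the calcium-binding protein known as Iba1, had 14.8, 20.7, 20.9 and 25.7 CPM with HFD and 17.9, 20.0, 19.3 and 24.6 CPM with CD, which overlapped throughout (0.01 ± 0.15, adjusted p = 0.992). Of 22 tested genes of inflammation through NF-kB none was called, 16 were positive and the median was 0.13. The cytokine gene Tnf had 1.18, 0.955, 1.13 and 1.56 CPM in HFD pools and 1.29, 0.994, 1.24 and 1.15 CPM in CD pools (0.06 ± 0.26, adjusted p = 0.976). Il6 had 1 to 6 counts per library in HFD pools and 1 to 4 in CD pools and was too low to be tested. Of 9 tested B and T cell markers, 8 were positive with a median of 0.19 and none called. Ighm, an immunoglobulin heavy chain, had 48.9, 41.9, 43.5 and 48.4 CPM with HFD and 34.3, 30.2, 35.9 and 44.6 CPM with CD (0.33 ± 0.10, adjusted p = 0.505). The summed level of these lymphocyte markers was 63.7 to 81.8 CPM in HFD pools and 55.9 to 70.5 CPM in CD pools. Their part in the interferon and chemokine values was not tested.

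Rbm3 and Cirbp encode RNA-binding proteins that are induced when mammalian cells are cooled by a few degrees, bind messenger RNA and affect its processing and translation, and follow the daily cycle of body temperature. Rbm3 (chromosome X, 8138975 to 8145880, reverse strand) had 78.6, 93.2, 79.5 and 87.5 CPM in the HFD pools and 143, 132, 166 and 124 CPM in the CD pools. The highest HFD pool was well below the lowest CD pool. Rbm3 fell by 0.74 on the log2 scale (SE 0.09, adjusted p = 0.00777), and the adjusted p was 0.0908 without HFD pool 4. An antisense gene, Rbm3os, overlaps its span. Since the strand setting of the counting is not given, reads of the pair may not have been told apart.

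Cirbp (chromosome 10, 80165985 to 80172786, forward strand) had 18.8, 18.8, 22.1 and 23.6 CPM in the HFD pools and 30.4, 29.0, 31.9 and 28.1 CPM in the CD pools. The groups were again apart, and the 4 CD pools were close together. It fell by 0.51 on the log2 scale (SE 0.08, adjusted p = 0.0303). Without HFD pool 1 the adjusted p was 0.128, without HFD pool 3 it was 0.0622, and without CD pools 1, 2 or 3 it was 0.0801, 0.0759 and 0.116. The promoter of Cirbp is printed because a mild-cold response octamer, TCCCCGCC, has been described in it. RefSeq gives 2 windows for Cirbp in GRCm38.p6, both on the forward strand. In the first (chr10:80167589-80167888), which is printed, the octamer, in capitals, occurred once, at -247 from the start, and in the second (chr10:80167921-80168220) it occurred 0 times. Searched on both strands, it occurred in 1768 of 32851 windows (5.38%), including that of Ifitm3, where it lay at -45, and in none of those of Vim, S100a11 and Ifitm2. No window was available for Rbm3 and Tubb2b, so neither element was searched for in them. Matches of the octamer and of the interferon element did not overlap in these windows.
Cirbp: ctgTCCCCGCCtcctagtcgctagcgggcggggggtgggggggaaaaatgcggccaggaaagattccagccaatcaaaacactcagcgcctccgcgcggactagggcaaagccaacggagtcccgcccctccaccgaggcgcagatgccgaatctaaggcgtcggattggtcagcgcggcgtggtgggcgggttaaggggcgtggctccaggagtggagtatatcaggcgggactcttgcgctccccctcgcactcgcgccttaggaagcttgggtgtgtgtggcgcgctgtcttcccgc

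The other 4 genes of the list named cold-inducible did not pass, and not all of them are known to be induced by cold. Rtn3 and Srsf5, described with Rbm3 and Cirbp as responding to cooling, had log2 fold changes of 0.0030 ± 0.05 (adjusted p = 0.992) and -0.06 ± 0.05 (adjusted p = 0.825). Rtn3 had 681, 688, 649.6 and 651 CPM in HFD pools and 669, 680.4, 649.7 and 665 CPM in CD pools, and its ranges were nearly the same in both diets. Srsf5 had 485, 484, 519 and 485 CPM with HFD and 532, 514, 529.9 and 480.5 CPM with CD. The splicing factor gene Sf3b1 (-0.0052 ± 0.05, adjusted p = 0.988) lay close to 0. Hsph1, a heat shock chaperone gene that was placed on this list, had 602, 680.0, 693 and 602 CPM with HFD and 584, 589.6, 561 and 569 CPM with CD. All its HFD pools were higher, by a log2 fold change of 0.16 ± 0.05 (adjusted p = 0.526). The median of the 6 genes, Hsph1 included, was -0.032.

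Heat shock genes, which are induced when proteins unfold at high temperature, were set beside them. None of the 20 genes was called by edgeR, and 5 had an unadjusted p under 0.05, all higher in HFD pools, against 3.94% of all genes. The log2 fold change was positive for 18 of 20, with a median of 0.10. Chordc1, a co-chaperone of HSP90, had 87.3, 92.4, 87.2 and 89.3 CPM in HFD pools and 71.9, 76.8, 66.9 and 74.1 CPM in CD pools. Its groups were well apart, but the log2 fold change of 0.30 ± 0.05 had an adjusted p of 0.0761, and DESeq2 called it. The inducible HSP70 gene Hspa1b had 2.25, 1.81, 1.90 and 1.93 CPM with HFD and 1.24, 1.12, 1.53 and 1.00 CPM with CD (0.69 ± 0.23, adjusted p = 0.513); its near-identical copy Hspa1a makes this count uncertain. Hsf1, the factor that switches heat shock genes on, chosen after its values were seen, had 0.20 ± 0.07 (adjusted p = 0.526). Tests of a difference between this list and the cold-inducible genes were not made.

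By the naming rule, the genes of smallest p that did not pass are given as values. On the higher side, Cd24a, a surface glycoprotein of immature neurons and ependyma, had 39.5, 39.8, 37.5 and 36.8 CPM in HFD pools and 29.9, 30.5, 29.9 and 30.8 CPM in CD pools (0.34 ± 0.06, adjusted p = 0.0649). The splicing regulator gene Tra2a had 44.5, 42.7, 43.6 and 44.3 CPM with HFD and 37.1, 35.4, 33.0 and 34.9 CPM with CD (0.32 ± 0.06, adjusted p = 0.0829). Both had very tight groups that stood clear of each other. Tnfaip8l3, which carries phosphoinositide lipids, had a log2 fold change of 0.43 ± 0.08 (adjusted p = 0.0829), Ano3, of the anoctamin family of membrane proteins, 0.48 ± 0.10 (adjusted p = 0.103), and Lims2, an adaptor of focal adhesions, 0.51 ± 0.10 (adjusted p = 0.103). The spans of Ano3 and Lims2 overlap those of Muc15 and Gpr17 on the opposite strand. Whether their exons overlap was not examined, and reads of each pair may not have been told apart.

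On the lower side, Plin4, a perilipin that coats lipid droplets, had 1.30, 2.10, 0.726 and 1.30 CPM in HFD pools and 2.74, 4.71, 4.35 and 3.54 CPM in CD pools. No HFD pool reached a CD pool, and its log2 fold change of -1.52 ± 0.26 was the most negative among these genes, with an adjusted p of 0.0594; it overlaps Hdgfl2 on the other strand. Agt, angiotensinogen, which astrocytes secrete as the precursor of angiotensin, had 31.7, 30.5, 33.9 and 32.3 CPM with HFD and 34.6, 43, 45.9 and 43 CPM with CD. The HFD pools were below all CD pools, though CD pool 1 came close (-0.38 ± 0.08, adjusted p = 0.105). Itih3, a hyaluronan-binding protein of the extracellular matrix, had 49.4, 50.3, 44.2 and 50.5 CPM with HFD and 56.2, 70.6, 80.4 and 79.9 CPM with CD (-0.56 ± 0.10, adjusted p = 0.105). Also wholly lower in HFD pools were the cytochrome P450 gene Cyp2d22 (-0.48 ± 0.10, adjusted p = 0.103), the homeodomain gene Lmx1a (-0.54 ± 0.11, adjusted p = 0.103), the carboxypeptidase M gene Cpm (-0.45 ± 0.09, adjusted p = 0.105) and the LIM domain gene Csrp1 (-0.22 ± 0.05, adjusted p = 0.123). Tsc22d3, a mediator of glucocorticoid action, had 40.5, 38.5, 34.9 and 39.5 CPM with HFD and 44.6, 45.8, 54.0 and 47.0 CPM with CD, again without overlap (-0.32 ± 0.07, adjusted p = 0.142).

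**Figure D3:**
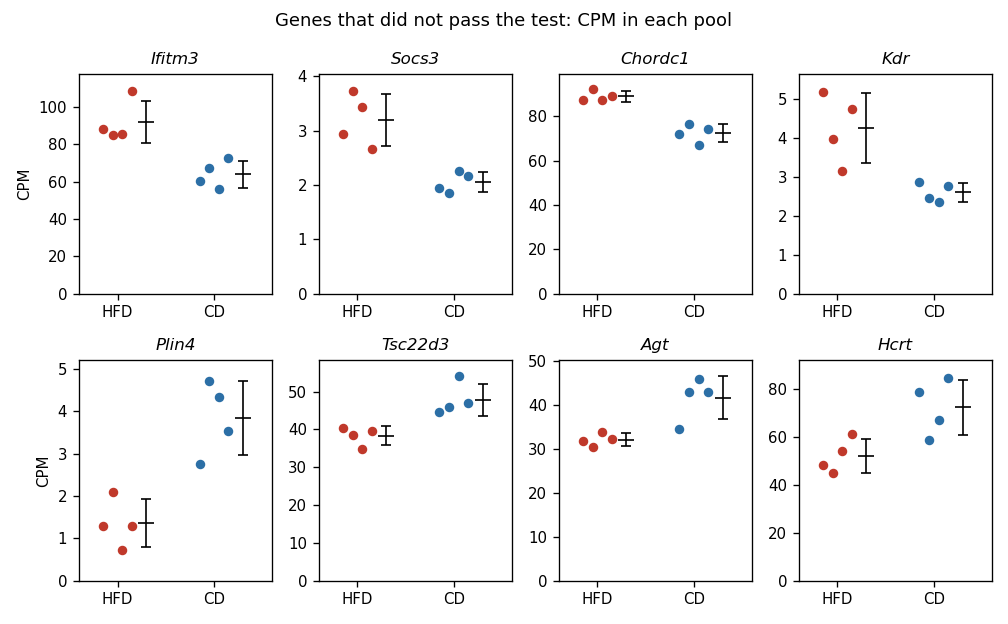
CPM (vertical axes, each from 0) of 8 genes that did not pass edgeR's test, with a point for each of the 4 HFD pools (red, left) and 4 CD pools (blue, right) and the mean ± SD in black. Ifitm3, Socs3, Chordc1 and Kdr lie higher in every HFD pool, Plin4, Tsc22d3 and Agt lie lower in every HFD pool, and Hcrt overlaps, with 61.1 CPM in HFD pool 4 and 58.8 CPM in CD pool 2.

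Plin4 and Tsc22d3 are on a list of 18 genes induced by glucocorticoids, the adrenal hormones that act through the receptor Nr3c1. None of the 18 was called by edgeR. At an unadjusted p under 0.05, 6 were lower in HFD pools, against 3.53% of all genes, and 1 was higher, against 3.94%. The log2 fold change was negative for 15 of the 18 genes, with a median of -0.17. DESeq2 called 4 of them, all lower, namely Plin4, Tsc22d3, Zbtb16 and Hif3a. Zbtb16, a zinc finger factor, had 12.2, 14.9, 10.2 and 12.8 CPM with HFD and 18.5, 13.9, 21.2 and 21.6 CPM with CD, where HFD pool 2 lay above CD pool 2 (-0.58 ± 0.14, adjusted p = 0.286). Hif3a, a relative of the hypoxia factors, chosen after its values were seen, had 11.2, 14.8, 7.91 and 9.08 CPM with HFD and 15.1, 14.9, 21.7 and 20.1 CPM with CD (-0.75 ± 0.21, adjusted p = 0.486). Fkbp5, a co-chaperone of the glucocorticoid receptor chosen after its values were seen, had 19.3 ± 1.21 CPM in HFD pools and 21.6 ± 2.25 CPM in CD pools (-0.17 ± 0.09, adjusted p = 0.702). On the positive side, the gene with an unadjusted p under 0.05 was the cell cycle inhibitor gene Cdkn1a (0.33 ± 0.09, adjusted p = 0.409), which p53 also induces.

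The circadian clock is a loop of activators and repressors that sets daily rhythms. Of 19 clock genes none was called, and 15 were negative with a median of -0.10. An unadjusted p under 0.05 was found for 4, all lower, against 3.53% of all genes. Nr1d1, the repressor REV-ERB alpha, had 141, 139.6, 140.1 and 131 CPM in HFD pools and 159.6, 158, 157 and 159.6 CPM in CD pools. Both groups were tight and apart (-0.20 ± 0.05, adjusted p = 0.199), and DESeq2 called this gene, whose span overlaps Thra on the other strand. Cry2, a repressor of the loop, had 124, 118, 130.0 and 125 CPM with HFD and 139, 145, 148 and 137 CPM with CD (-0.19 ± 0.05, adjusted p = 0.321). The output genes Ciart (-0.44 ± 0.14, adjusted p = 0.459) and Tef (-0.15 ± 0.06, adjusted p = 0.590) were negative as well. The sources used here do not give the hour at which mice were killed, and its part in these values was not tested.

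Immediate early genes, which neurons transcribe within minutes of activity, included no called gene among 23. Of these, 19 were positive, with a median of 0.12, and 3 had an unadjusted p under 0.05, all higher, against 3.94% of all genes. Fosb had 7.21, 3.63, 5.49 and 4.52 CPM in HFD pools and 2.53, 3.33, 2.87 and 4.62 CPM in CD pools (0.62 ± 0.22, adjusted p = 0.560). Egr3 (0.66 ± 0.25, adjusted p = 0.588), Egr4 (0.70 ± 0.29, adjusted p = 0.610) and Fosl2 (0.21 ± 0.10, adjusted p = 0.675) overlapped between the diets too.

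Genes of lipid handling were examined because the diets differ in fat. Of 14 fatty acid synthesis genes none was called, and 12 were negative, with a median of -0.080. Unadjusted p-values under 0.05 were found for 4, all lower, against 3.53% of all genes. Fads1, the delta-5 desaturase of polyunsaturated fatty acids, had 234, 239, 225 and 220.2 CPM with HFD and 241, 258, 289 and 292 CPM with CD. HFD pools were wholly lower, though HFD pool 2 and CD pool 1 nearly met (-0.24 ± 0.06, adjusted p = 0.286). The stearoyl-CoA desaturase genes Scd1 (-0.19 ± 0.08, adjusted p = 0.609) and Scd2 (-0.15 ± 0.06, adjusted p = 0.609) and Srebf1, the factor that drives the pathway (-0.21 ± 0.09, adjusted p = 0.661), overlapped. Among 34 genes of fatty acid uptake and oxidation 15 were positive, with a median of -0.011. The fatty acid transporter gene Cd36 had 2.25, 2.63, 3.47 and 2.85 CPM with HFD and 2.96, 3.41, 3.68 and 5.54 CPM with CD (-0.48 ± 0.20, adjusted p = 0.622), and the brain fatty acid-binding protein gene Fabp7 had 0.25 ± 0.09 (adjusted p = 0.592). Of 23 tested cholesterol synthesis genes 11 were positive, with a median of -0.0069, and none was called.

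Of 32 neuropeptide genes listed, 27 were tested, none was called by edgeR, and 14 were positive with a median of 0.064. Hcrt, the precursor of the orexins, which promote waking and feeding, had 48.3, 44.8, 53.8 and 61.1 CPM in HFD pools and 78.5, 58.8, 66.9 and 84.6 CPM in CD pools. The groups overlapped by 1 pool on each side, and the log2 fold change of -0.47 ± 0.13 had an adjusted p of 0.513, while DESeq2 called it lower. Pmch, melanin-concentrating hormone of the same lateral region, had 222, 201, 203 and 206 CPM with HFD and 295, 209.6, 209.8 and 281 CPM with CD (-0.26 ± 0.12, adjusted p = 0.682). The annotated span of the hunger peptide gene Agrp overlaps Ctcf and Ripor1 on the other strand and Gm5914 on its own. Agrp had 1.13, 1.38, 1.25 and 2.45 CPM with HFD and 1.72, 4.41, 3.78 and 1.19 CPM with CD. CD pools 2 and 3 lay above all HFD pools, and CD pools 1 and 4 lay within their range (-0.81 ± 0.43, adjusted p = 0.724). Npy, made by the same neurons, had 9.80, 7.40, 8.80 and 9.37 CPM with HFD and 7.32, 10.9, 9.42 and 10.1 CPM with CD (-0.10 ± 0.13, adjusted p = 0.904). Pomc, the precursor of the satiety peptide alpha-MSH, had 15.4, 20.4, 16.8 and 21.3 CPM with HFD and 29.0, 17.3, 11.5 and 10.4 CPM with CD. The CD pools spread over a wider range than the HFD pools (0.13 ± 0.35, adjusted p = 0.955). Cartpt (-0.02 ± 0.10, adjusted p = 0.975), Trh (-0.04 ± 0.26, adjusted p = 0.984), Crh (0.67 ± 0.47, adjusted p = 0.785), Avp (0.39 ± 0.33, adjusted p = 0.840), Oxt (0.29 ± 0.34, adjusted p = 0.901), Sst (0.25 ± 0.17, adjusted p = 0.790) and Gal (0.18 ± 0.12, adjusted p = 0.758) did not pass either. Opioid precursor gene Penk had 44.3, 36.0, 37.7 and 50.8 CPM with HFD and 31.2, 31.0, 31.1 and 37.6 CPM with CD (0.37 ± 0.11, adjusted p = 0.459), and Vip, of the suprachiasmatic clock neurons, had 1.63, 1.86, 1.49 and 1.93 CPM with HFD and 0.700, 1.04, 1.43 and 0.885 CPM with CD (0.77 ± 0.26, adjusted p = 0.526).

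Of 20 feeding-related receptor genes 18 were tested, none was called and 10 were positive, with a median of 0.044. The leptin receptor gene Lepr had 3.61, 3.39, 2.74 and 2.26 CPM in HFD pools and 1.99, 2.85, 1.34 and 2.58 CPM in CD pools (0.43 ± 0.23, adjusted p = 0.712). Calcr, the calcitonin and amylin receptor, had 15.1, 11, 14.9 and 11.2 CPM with HFD and 10.1, 10.4, 9.85 and 9.89 CPM with CD. Its HFD pools were wholly higher but split into a higher and a lower pair (0.37 ± 0.11, adjusted p = 0.461). The receptor genes Npy2r (0.38 ± 0.13, adjusted p = 0.526), Crhr2 (-0.63 ± 0.26, adjusted p = 0.610) and Ntrk2 (-0.15 ± 0.07, adjusted p = 0.667) did not pass. Among 20 regional factors of the hypothalamus 12 were positive and none was called, with a median of 0.040.

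Markers of other cell types and of tissue next to the hypothalamus were compared across the pools. Of 16 neuron markers 7 were positive (median -0.035), of 15 oligodendrocyte markers 6 (median -0.020) and of 10 markers of their precursors 7 (median 0.027), with none called. Of 14 astrocyte markers 11 were negative, with a median of -0.13, and 5 of them had an unadjusted p under 0.05, against 3.53% of all genes. The summed astrocyte level was 9609 to 10707 CPM in HFD pools and 9507 to 12677 CPM in CD pools. The glutamate transporter gene Slc1a2 had 2680, 3142, 2489 and 2546 CPM with HFD and 2704, 3165, 3278 and 3399 CPM with CD (-0.21 ± 0.08, adjusted p = 0.622), and the gap junction gene Gja1 had -0.18 ± 0.06 (adjusted p = 0.554). Of 10 striatal markers 9 were positive, with a median of 0.25. Of these, 4 had an unadjusted p under 0.05, all higher, against 3.94% of all genes. The summed striatal level was 212 to 275 CPM in HFD pools and 222 to 232 CPM in CD pools. Of 10 thalamic markers 9 were negative, with a median of -0.14 and a summed level of 1299 to 2389 CPM in HFD pools and 1667 to 2276 CPM in CD pools. The thalamic kinase gene Prkcd had 41.7, 135, 63.8 and 47.2 CPM with HFD and 82.3, 143, 96.9 and 84.4 CPM with CD, highest in pool 2 of both diets (-0.50 ± 0.43, adjusted p = 0.846). Of 11 tested markers of cortex and hippocampus 7 were positive, with a median of 0.069. The growth hormone gene Gh of the anterior pituitary had 11.1, 254, 4.24 and 78.3 CPM with HFD and 1338, 35.6, 31.7 and 39.3 CPM with CD. CD pool 1 stood far above the other 7, and the log2 fold change of -2.05 ± 1.82 (adjusted p = 0.852) became 1.29 without it. How much the edges of the dissection bore on the called genes was not tested.

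Markers of vessels and meninges were compared next. Of 17 tested endothelial markers none was called by edgeR, and 6 had an unadjusted p under 0.05, all higher, against 3.94% of all genes. The 17 markers had 15 positive values and a median of 0.22. Their summed level was 108 to 138 CPM in HFD pools and 106 to 121 CPM in CD pools. The VEGF receptor gene Kdr had 5.18, 3.96, 3.15 and 4.74 CPM with HFD and 2.85, 2.46, 2.34 and 2.77 CPM with CD (0.70 ± 0.18, adjusted p = 0.262). Cldn5 had 1.69, 1.29, 1.45 and 1.78 CPM with HFD and 0.538, 0.864, 1.10 and 0.346 CPM with CD (1.13 ± 0.32, adjusted p = 0.419), and the angiopoietin receptor gene Tek had 1.58, 2.15, 1.69 and 2.30 CPM with HFD and 1.29, 1.17, 1.10 and 1.27 CPM with CD (0.68 ± 0.23, adjusted p = 0.526). In all 3 genes the HFD pools were wholly higher. In the precipitated RNA the same 17 markers had a median of -0.068 with 6 positive. Of 11 tested pericyte and smooth muscle markers 6 were positive (median 0.0062), and of 12 fibroblast and meningeal markers 9 (median 0.20), with summed levels of 123 to 166 CPM in HFD pools and 93.1 to 181 CPM in CD pools for the fibroblast markers. Of 22 tested collagen and matrix genes 16 were positive, with a median of 0.11.

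**Figure D4:**
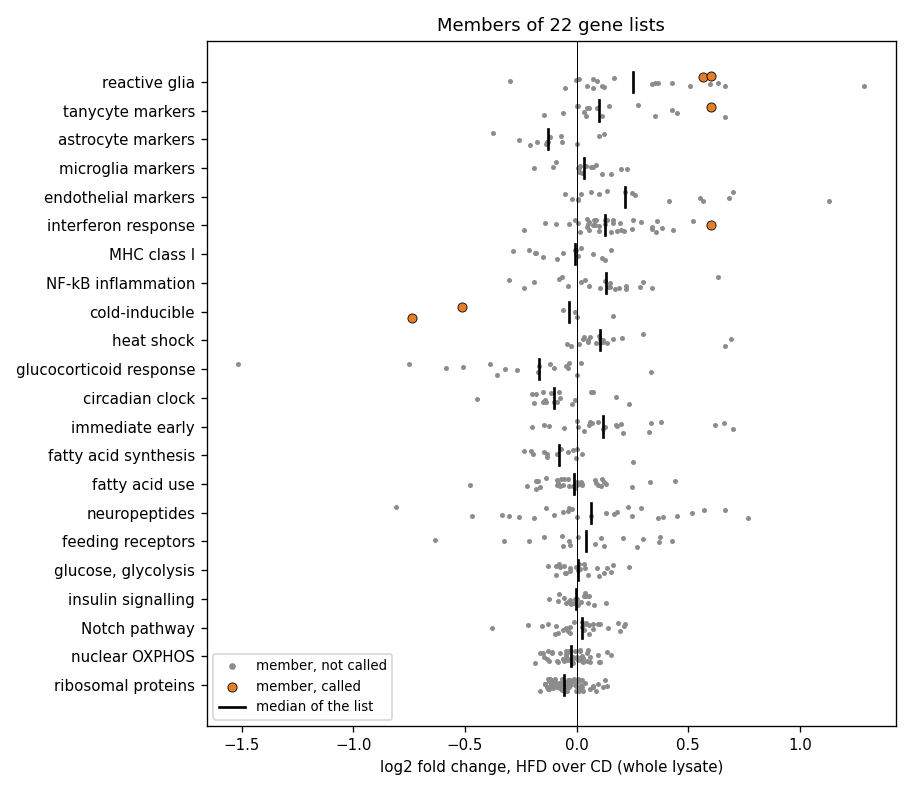
Log2 fold change (HFD over CD, horizontal axis) of the tested members of 22 gene lists, with a grey point for each member that did not pass, an orange point for each called member and a black bar for the median of the list. The reactive glia list has its median at 0.25 and the glucocorticoid list at -0.17; called genes are Vim, S100a11 and Ifitm2 on the right and Rbm3 and Cirbp on the left.

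Glucose, insulin and Notch genes were examined as lists. Of 26 genes of glucose transport and glycolysis 14 were positive, with a median of 0.0046 and none called. At an unadjusted p under 0.05, 4 were higher and 1 was lower, against 3.94% and 3.53% of all genes. Slc2a1, the glucose transporter Glut1 of vessels and glia, had 52.6, 45.0, 39.1 and 46.1 CPM with HFD and 41.9, 44.4, 51.6 and 43.9 CPM with CD, with overlapping groups (0.0050 ± 0.08, adjusted p = 0.993). Ldha, the lactate dehydrogenase that favours lactate, had 378, 344, 372 and 332 CPM with HFD and 278, 306, 293 and 332 CPM with CD (0.24 ± 0.06, adjusted p = 0.262). Of 23 genes of insulin signalling 11 were positive, with a median of -0.0026, and the insulin receptor gene Insr had 66.6, 67.7, 63.9 and 64.5 CPM with HFD and 69.9, 65.0, 66.3 and 67.3 CPM with CD (-0.03 ± 0.05, adjusted p = 0.932). Of 29 tested Notch genes 16 were positive, with a median of 0.024 and a range of -0.38 to 0.22. The receptor gene Notch1 had 15.5, 13.6, 14.9 and 17.9 CPM with HFD and 14.8, 14.7, 18.3 and 16.3 CPM with CD (-0.05 ± 0.10, adjusted p = 0.943), while Lfng, which adds sugars to Notch receptors, had 5.13, 5.25, 4.84 and 4.41 CPM with HFD and 5.70, 5.66, 8.08 and 6.04 CPM with CD (-0.38 ± 0.14, adjusted p = 0.574).

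Genes of translation and respiration were compared in both kinds of RNA. Of 79 ribosomal protein genes 20 were positive in whole lysate, with a median of -0.055, a range of -0.16 to 0.14 and none called. Of 50 nuclear genes of oxidative phosphorylation 18 were positive, with a median of -0.025. In the precipitated RNA of the same pools the values were 78 of 79 positive with a median of 0.15 for ribosomal protein genes, and 41 of 50 with a median of 0.099 for oxidative phosphorylation. Stress lists other than heat shock included no called gene, with medians of -0.0064 for 22 genes of the unfolded protein response, -0.028 for 18 tested genes of the integrated stress response, -0.0063 for 16 NRF2 targets, 0.057 for 16 p53 targets and 0.014 for 19 hypoxia genes. Of the 48 lists examined, 6 held a gene that passed edgeR's test and 12 held a gene that DESeq2 called. The lists share genes, so these are not separate results. S100a11 is on the ependymal, reactive glia and S100 lists, Vim on the tanycyte and reactive glia lists, and Agt on the astrocyte and angiotensin lists. Beyond the 6 genes, DESeq2 called on these lists Hcrt, Agt, Ifitm3, Chordc1, Nr1d1 and the 4 glucocorticoid genes.

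Every pool was meant to hold equal numbers of males and females. Of the Y-linked genes, Ddx3y had 40.6, 48.1, 40.8 and 41.8 CPM in HFD pools and 54.8, 41.8, 52.0 and 48.0 CPM in CD pools (-0.20 ± 0.08, adjusted p = 0.610), and Eif2s3y had 7.38, 3.92, 4.92 and 4.63 CPM with HFD and 9.15, 6.35, 8.46 and 4.77 CPM with CD (-0.46 ± 0.23, adjusted p = 0.697). Kdm5d (-0.17 ± 0.11, adjusted p = 0.767) and Uty (-0.05 ± 0.10, adjusted p = 0.937) overlapped. Xist, expressed from the inactive X chromosome of females, had 16.7, 22.8, 20.7 and 25.3 CPM with HFD and 14.7, 21.7, 14.8 and 31.1 CPM with CD (0.05 ± 0.28, adjusted p = 0.982). Of these 5 sex-linked genes 4 were negative in whole lysate, with a median of -0.17. An unadjusted p under 0.05 was found for 1, which was lower, against 3.53% of all genes. In the precipitated RNA the same 5 genes had a median of -0.40 with 1 positive. Rbm3 lies on the X chromosome, and the part of the sexes in its value was not tested.

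Diet differences of the 6 called genes were set beside those in precipitated RNA, which comes from the same lysates and is no independent sample. Vim had a log2 fold change of 0.81 ± 0.16 in IP (adjusted p = 0.120), S100a11 0.85 ± 0.12 (adjusted p = 0.0294), Ifitm2 0.41 ± 0.10 (adjusted p = 0.122) and Tubb2b 0.34 ± 0.08 (adjusted p = 0.0958). Rbm3 had -0.47 ± 0.08 (adjusted p = 0.0334) and Cirbp -0.48 ± 0.11 (adjusted p = 0.0958). Hence S100a11 and Rbm3 passed in both kinds of RNA, and the other 4 kept the sign without passing in IP. In the IP comparison 15 of 15852 genes (0.0946%) passed. The difference of the diet effects between whole lysate and IP was tested as an interaction with edgeR in all 16 libraries. It was called for 0 of 17618 genes (0%), while 747 (4.24%) had an unadjusted p under 0.05 and DESeq2 called 1. That edgeR fit, also used for Lims2 and Ano3 below, took INPUT and IP of the same lysate as independent libraries. Its 0 calls do not show that the diet effects were equal. With the pool as a replicate block, edgeR called 1 gene, Zfp969, which is named here after its value was seen (difference 6.72, adjusted p = 0.0142). Zfp969 did not pass the low-count filter of the whole-lysate comparison, where the largest log2 fold change was 2.15. With no low-count filter, its log2 fold change there was 7.17. Of the genes given as values, Lims2 had 0.51 ± 0.10 in whole lysate and -0.04 ± 0.11 in IP (difference 0.54 ± 0.15), and Ano3 had 0.48 ± 0.10 and -0.02 ± 0.14 (difference 0.50 ± 0.16). For both, the adjusted p of the difference was 1.00. Plin4 (-1.31 ± 0.29), Agt (-0.54 ± 0.09), Cyp2d22 (-0.53 ± 0.09) and Itih3 (-0.55 ± 0.11) were negative in IP as in whole lysate, and Agt and Cyp2d22 passed there (adjusted p = 0.0349 and 0.0334).

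**Figure D5:**
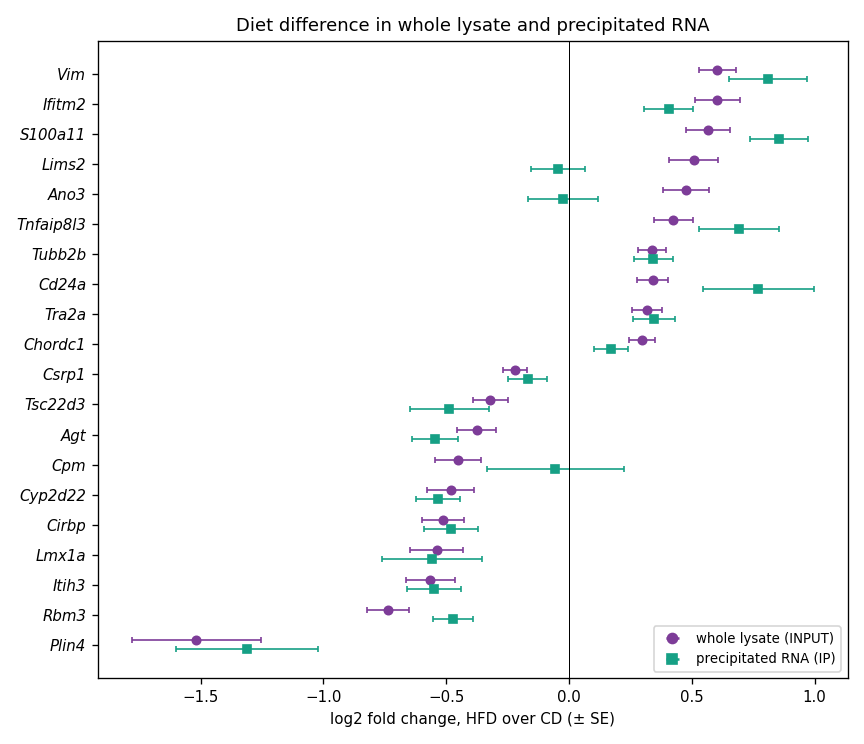
Log2 fold change ± SE (HFD over CD, horizontal axis) of the 6 called genes and the genes of next smallest p in whole lysate (purple circles) and in RNA bound to tagged ribosomes (green squares), each from 4 HFD and 4 CD pools. Lims2 (-0.04), Ano3 (-0.02) and Cpm (-0.05) lie near 0 in the precipitated RNA.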

How the data were processed

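RNA of 8 whole-lysate libraries (INPUT) was analysed, with 8 precipitated libraries (IP) of the same table. The authors deposited expected counts per gene, of which 17.3% were not whole, and these were rounded to whole numbers. The build was GRCm38 per the submitters' processing notes. The aligner, the counting program, the annotation release and the strand setting are not given in the sources used here. Gene types and spans were taken from GENCODE M21. Of 45706 rows, 3921 were left out before scaling, 37 of them mitochondrial, 357 ribosomal or repeat and 3527 structural. Rows without a symbol held at most 0.0786% of a library.

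Counts were scaled by TMM in edgeR 4.0.16 (R 4.3.3, limma 3.58.1; factors 0.980 to 1.02), filtered with filterByExpr and tested with the robust quasi-likelihood test, 2-sided, with Benjamini-Hochberg adjustment over all genes tested at 0.05. Log2 fold changes are HFD over CD, with their standard errors. DESeq2 1.42.0 was an alternative, as were other scalings, filters, sample sets, a replicate block and leaving out each library. The code was tested on simulated counts. Shares of counts were compared by exact permutation tests.

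Named genes were the called genes, those of smallest p that fill each direction to 10, up to 4 members of each list by p, and a fixed set of feeding, glial and sex-linked genes; others are marked as chosen after their values were seen. The members and lists were chosen with earlier results of these data known. No 2 libraries of a group agreed within sampling noise (lowest chi-square per degree of freedom 6.11). Pools are separate sets of mice per the labels' protocols. HFD and CD pools share numbers, and their deviations correlated at 0.041 to 0.097. Libraries of 1 lysate, INPUT and IP, correlated at -0.0069 to 0.14. Every INPUT library except that of HFD pool 1 correlated best with the IP library of its own number. Between the diets, numbers 2 and 3 correlated best with their own number and numbers 1 and 4 did not. These values do not settle whether the numbers pair the diets. The main fit left the numbers out, and the replicate block was an alternative. INPUT and IP of the same number come from the same lysate. Some results are not reported here.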

Additional observations from a re-analysis of the deposited data

Results flagged for a closer look

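In each diet group of 4 pools, the highest and lowest pool of every named gene was compared with the other 3 by Dixon's test at the 95% level. Of 262 groups tested, 15 held a pool that stood apart, and chance gives about 1 in 20.

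HFD pool 4 stood apart in 4 genes. It had 109 CPM of Ifitm3, against 85.2 to 88.2 CPM in the other HFD pools, and 6.56 CPM of the ubiquitin-like gene Ubd, against 3.77 to 3.95 CPM. The transthyretin gene Ttr of the choroid plexus reached 5.41 CPM there, against 1.80 to 2.15 CPM, and the clock repressor gene Nr1d1 was lowest there, at 131 CPM against 139.6 to 141 CPM. HFD pool 3 had 519 CPM of the splicing factor gene Srsf5 (others 484 to 485 CPM), and HFD pool 2 had 48.1 CPM of the Y-linked gene Ddx3y (others 40.6 to 41.8 CPM).

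Among the CD pools, pool 4 stood apart in 5 genes. The microglial genes Itgam and Tmem119 had 42.8 CPM and 19.5 CPM there, against 29.7 to 31.5 CPM and 16.1 to 16.6 CPM in the other CD pools, the myelin gene Mal had 203 CPM (others 229.6 to 234 CPM), the GTPase gene Gvin1 25.6 CPM (others 17.4 to 18.6 CPM) and the opioid gene Penk 37.6 CPM (others 31.0 to 31.2 CPM). CD pool 3 had 26.5 CPM of the oxytocin gene Oxt (others 14.4 to 15.2 CPM) and 8.08 CPM of the Notch modifier gene Lfng (others 5.66 to 6.04 CPM). CD pool 2 had 1.08 CPM of the receptor gene Crhr2 (others 1.67 to 1.77 CPM). CD pool 1 had 1338 CPM of the growth hormone gene Gh, against 31.7 to 39.3 CPM in the other CD pools. What set these pools apart was not tested.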

How the results depend on the processing

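The count of 6 called genes (4 higher, 2 lower) was 6 with RLE scaling, with a filter of 1 CPM in 4 libraries, with all rows kept, with protein-coding rows alone, and, chosen after seeing the data, with the ribosomal repeat rows kept. It was 52 with DESeq2 (32 higher, 20 lower) and 115 with no low-count filter (63 higher, 52 lower), each including the same 6, and 3 without robust estimation. A fit of all 16 libraries called 1 gene, Rbm3. With the replicate number as a replicate block it was 42 (28 higher, 14 lower), of which 5 were among the 6; Rbm3 was the one not called (-0.73, adjusted p = 0.0905). The 4 same-numbered pairs correlated at 0.041 to 0.097, and 2 of 4 correlated best with their own number. Leaving out 1 library gave 2 to 16 genes. For the difference between INPUT and IP, the count of 0 became 1 with the pool as a replicate block, 1 with DESeq2, and 0 to 1 on leaving out a pool. The mitochondrial share difference of -0.917 percentage points ranged from -1.99 to 0.714 on leaving out a library.

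The sign of the log2 fold change turned under some settings for the genes given here. Aif1 had -0.0011 with the replicate block, Rtn3 -0.0024 and Slc2a1 -0.00015 with all 16 libraries. On leaving out 1 library, log2 fold changes ran from -0.12 to 0.13 for Aif1, -0.10 to 0.15 for Tnf, -0.024 to 0.0069 for Sf3b1, -0.015 to 0.016 for Rtn3, -0.049 to 0.50 for Pomc, -0.10 to 0.024 for Cartpt, -0.22 to 0.15 for Trh, -0.066 to 0.074 for Slc2a1, -0.13 to 0.015 for Notch1, -3.49 to 1.29 for Gh, -0.13 to 0.014 for Uty and -0.083 to 0.32 for Xist. Of 864 list medians under the alternatives, 5 moved beyond their spread, and 21 lists changed sign at least once. The cause of these changes was not tested. Depth set the lower limit of the genes tested, and Il6, at 1 to 6 counts in HFD pools and 1 to 4 in CD pools, was below it.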

Other observations

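Some genes outside the lists or the naming rule, chosen after their values were seen, lay apart between the diets without passing edgeR's test. Ngfr, the low-affinity neurotrophin receptor, had 11.5, 9.17, 9.52 and 15.8 CPM in HFD pools and 6.67, 5.01, 7.03 and 7.08 CPM in CD pools (0.84 ± 0.17, adjusted p = 0.142). Adra1b, an alpha-1 adrenergic receptor, had 7.32, 11.5, 9.08 and 8.82 CPM with HFD and 13.3, 17.3, 12.4 and 13 CPM with CD (-0.61 ± 0.13, adjusted p = 0.142). The groups of both genes were fully separate, and DESeq2 called both.

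Wwtr1, the Hippo pathway coactivator TAZ, had 31.5, 32.8, 30.2 and 35.6 CPM with HFD and 23.4, 25.0, 26.6 and 26.8 CPM with CD (0.35 ± 0.07, adjusted p = 0.105). Cd93, a surface lectin of endothelium and myeloid cells, had 9.46, 5.25, 5.77 and 9.15 CPM with HFD and 4.04, 3.93, 5.16 and 3.08 CPM with CD (0.87 ± 0.21, adjusted p = 0.266). HFD pools of Cd93 split into a higher pair and a lower pair that nearly met CD pool 3. Further interferon-induced genes, the chemokine gene Cxcl11 (1.09 ± 0.25, adjusted p = 0.142) and Samd9l (0.36 ± 0.08, adjusted p = 0.142), were also wholly higher in HFD pools. GENCODE types Cxcl11 as a polymorphic pseudogene, and its span overlaps Art3 on the other strand.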
